A study of Mus musculus with 32 samples.

Results

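Vegfa and 9 genes of the vascular endothelium (Kdr, Flt1, Tek, Eng, Cdh5, Pecam1, Emcn, Plvap and Ehd3) were followed through cisplatin-induced acute kidney injury in mouse kidney. These 10 genes were taken by name, with no threshold on their values, from the 54532 genes counted. Kidney RNA of 32 mice was sequenced, 1 library per mouse, with 4 mice for each sex on each of Day 0, Day 2, Day 3 and Day 5, which makes 8 groups. All mice were wild type (wt) of the strain C57bl/6 and 6 to 8 weeks old, and the mice of Day 2, Day 3 and Day 5 had received a single intraperitoneal injection of 20 mg/kg cisplatin. The labels give cisplatin as the treatment of the Day 0 females and none for the Day 0 males, while the study treats both as healthy mice before injection, which was followed here. Differences between days are therefore differences between mice, and the Day 2, Day 3 and Day 5 comparisons of a sex share their 4 Day 0 mice.

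Vegfa is the growth factor on which kidney capillaries depend, and is made there by podocytes and tubular cells. It acts on the neighbouring endothelium through the receptor tyrosine kinase Kdr, while Flt1 binds it tightly, signals weakly and in its soluble form withholds it from Kdr. Tek is the receptor of the angiopoietins, Eng is a co-receptor for ligands of the TGF-beta and BMP family, Cdh5 and Pecam1 hold endothelial cells together at their junctions, Emcn is a mucin of the surface of capillaries and veins, Plvap builds the diaphragms of fenestrae, and Ehd3 is a membrane-trafficking protein that in the kidney marks the glomerular endothelium.

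The results turn on the ligand Vegfa, on Flt1 and Tek, which were higher after cisplatin in males, and on Emcn, which was lower in females. The 250 bases before their start sites are shown for the comparison of their letters, 5′ to 3′ on the strand of the gene, from RefSeq for GRCm38.p6. The windows are chr17:46032378-46032627 on the minus strand for Vegfa, chr5:147726012-147726261 on the minus strand for Flt1, chr4:94739039-94739288 on the plus strand for Tek and chr3:137340828-137341077 on the plus strand for Emcn. Capitals mark GGGCGG (bound by Sp1; CCGCCC on the other strand) in Vegfa and Flt1, and GGAA (the core bound by ETS factors; TTCC on the other strand) in Tek and Emcn.
Vegfa: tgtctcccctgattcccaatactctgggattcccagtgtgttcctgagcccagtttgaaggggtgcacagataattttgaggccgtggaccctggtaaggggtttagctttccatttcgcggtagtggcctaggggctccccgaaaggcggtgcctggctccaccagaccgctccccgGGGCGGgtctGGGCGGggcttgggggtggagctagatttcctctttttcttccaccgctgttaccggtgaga
Flt1: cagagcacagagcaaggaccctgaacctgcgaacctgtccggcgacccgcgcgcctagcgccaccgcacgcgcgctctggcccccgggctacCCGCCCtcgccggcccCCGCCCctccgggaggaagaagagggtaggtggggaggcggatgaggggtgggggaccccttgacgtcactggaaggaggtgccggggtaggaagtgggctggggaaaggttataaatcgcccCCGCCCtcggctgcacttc
Tek: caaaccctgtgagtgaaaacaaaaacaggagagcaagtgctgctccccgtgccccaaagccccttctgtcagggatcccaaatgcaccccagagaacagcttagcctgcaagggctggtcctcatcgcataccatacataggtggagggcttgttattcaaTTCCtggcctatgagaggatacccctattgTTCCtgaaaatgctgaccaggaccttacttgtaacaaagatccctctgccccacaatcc
Emcn: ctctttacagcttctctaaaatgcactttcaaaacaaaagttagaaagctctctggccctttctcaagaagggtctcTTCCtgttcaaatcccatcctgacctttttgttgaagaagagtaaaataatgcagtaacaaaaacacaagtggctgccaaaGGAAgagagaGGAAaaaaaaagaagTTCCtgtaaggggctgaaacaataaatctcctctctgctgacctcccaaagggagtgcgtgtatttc
GGGCGG occurred 2 times before Vegfa and 3 times before Flt1, and in neither of the windows of Tek and Emcn. Of 32851 mouse promoters of that length, 32.7418% held it on either strand. GGAA occurred 6 times before Vegfa, 4 times before Flt1, 2 times before Tek and 4 times before Emcn, and 93.4462% of all promoters held it. ACGTG, the core of the hypoxia response element (CACGT on the other strand), was in none of the 7 windows that could be matched to the 10 genes, and 16.5718% of all promoters held it.

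On the FPKM scale (fragments scaled to gene length and to a library size), which allows genes to be compared per length, Plvap had the highest level of the 10 in healthy kidney and Flt1 the lowest. The library size behind the deposited FPKM was not the counted total. Its ratio to that total ran from 0.29 (male Day 5 mouse 4) to 1.46 (female Day 2 mouse 2). In Day 0 males the mean level was 88.1 ± 9.20 FPKM for Plvap, 48.9 ± 15.99 for Eng and 28.5 ± 10.1 for Vegfa (SD, n = 4 for every mean of this paragraph). Emcn followed at 11.3 ± 3.19 FPKM, Pecam1 at 6.97 ± 1.97, Cdh5 at 6.15 ± 1.99, Kdr at 5.96 ± 1.35, Tek at 4.72 ± 0.974, Ehd3 at 3.68 ± 1.66 and Flt1 at 2.52 ± 0.572. The 4 mice of Plvap did not overlap those of Eng, and those of Eng did not overlap those of Vegfa, whereas each of the lower neighbours in this order overlapped the next. In Day 0 females the order was the same from Plvap (100.4 ± 16.7 FPKM) through Eng (60.8 ± 19.3), Vegfa (25.0 ± 15.9), Emcn (15.1 ± 4.64) and Pecam1 (6.15 ± 2.56) to Flt1 (2.43 ± 1.15), except that Tek (5.25 ± 1.45) stood before Cdh5 (4.83 ± 2.89) and Kdr (4.71 ± 2.61). There the mice did not overlap between Plvap and Eng and between Emcn and Pecam1. Each of the 10 genes was counted in each library, with at least 186 reads (Ehd3 in 1 male at Day 5), in libraries of 16502107 to 35961325 counted reads. Of the 10, Eng alone shares exonic bases with another annotated gene, 61 bases with Fpgs on the opposite strand.

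Some libraries stood apart, and their values touch the results. Mouse 3 of either sex at Day 0 had the fewest genes detected, 17985 in the male and 16265 in the female, against 21188 to 23734 in the other 6 Day 0 mice. In both sexes, Day 0 mouse 3 had the lowest level within its group of 8 of the 10 genes and the highest of the other two, Eng and Emcn. Female Day 0 mouse 4 had the highest level of 7 of the 10 genes and the lowest of Eng and Emcn, and male Day 0 mouse 4 the highest of 5. Male Day 5 mouse 1 held 4153 reads of Xist, a transcript of the inactive X chromosome of females, against 0 to 260 in the other 15 male libraries, and also 387 reads of Y-linked genes. At Day 5 the genes of the mitochondrial genome took 42.5 to 79.8% of all counts in males and 9.30 to 77.9% in females, against 4.49 to 23.97% in the other 24 libraries. Values without 1 of these libraries are given beside many, not all, of the main results. No fit left out the Day 5 males of high mitochondrial share together. Without female Day 5 mouse 2, the female with the highest mitochondrial share at Day 5, 0 of the 10 passed in females at Day 5, beside 0.26% of all genes.

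Below, a gene passed the test where it did so in edgeR with all mice of the groups compared, unless another test or a mouse left out is named. Vegfa, the ligand, passed this test in none of the comparisons with Day 0. Its levels, in CPM (read counts scaled to library size with edgeR's TMM factors), were 157, 151, 54.5 and 134 in males at Day 0, 142, 151, 167 and 90.7 at Day 2, 155, 167, 181 and 175 at Day 3 and 134, 80.9, 83.3 and 75.5 at Day 5, in the order of mouse 1 to 4. The Day 3 males were packed closely at 155 CPM or more, with 1 of them below the highest Day 0 male, and mouse 3 was far below the other 3 males at Day 0. By the quasi-likelihood test of edgeR the log2 fold change against Day 0 was 0.15 ± 0.31, adjusted p = 0.779 at Day 2 (± SE, Benjamini-Hochberg adjusted over all genes tested, as throughout), 0.44 ± 0.27, adjusted p = 0.262 at Day 3 and -0.31 ± 0.32, adjusted p = 0.519 at Day 5. Without Day 0 mouse 3 it was -0.11, adjusted p = 0.747, 0.20, adjusted p = 0.0925 and -0.54, adjusted p = 0.103 on these days, and limma voom with quality weights called the Day 5 value (-0.74, adjusted p = 0.000312). In females the levels were 106, 68.7, 50.8 and 207 CPM at Day 0, 98.6, 116, 102 and 139 at Day 2, 118, 158, 114 and 123 at Day 3 and 121, 100.3, 98.3 and 129.7 at Day 5. The 4 Day 0 females spanned the other 12, with mouse 4 above and mouse 3 below each of them. Their log2 fold changes were 0.03 ± 0.38 at Day 2, 0.20 ± 0.39 at Day 3 and 0.05 ± 0.38 at Day 5, with adjusted p from 0.733 to 0.968. With female Day 0 mouse 4 left out, Vegfa at Day 3 was at 0.72, adjusted p = 0.0473, and with mouse 3 left out at -0.018, adjusted p = 0.973.

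Between Day 3 and Day 5, Vegfa fell in males. All 4 Day 5 males lay below all 4 Day 3 males, with a log2 fold change of -0.72 ± 0.18, adjusted p = 0.0151, and the test was passed in each of the 8 fits that left out 1 mouse. Male Day 5 mouse 1, the library with reads of Xist, was the highest of its group at 133.8 CPM, and the other 3 lay at 75.5 to 83.3 CPM. Over the same interval podocyte markers summed to 143 to 176 CPM at Day 3 and 48.7 to 136 at Day 5, and proximal tubule markers (Slc34a1, Lrp2 and Cubn) to 4158 to 6758 CPM and 235 to 2804 CPM; the part of these cells in the Vegfa difference was not tested.

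Flt1, the decoy-like receptor, and Tek, the angiopoietin receptor, were the members with the clearest rise. Flt1 in males was at 36.9, 34.9, 22.5 and 43.0 CPM at Day 0, 71.4, 62.9, 76.0 and 72.8 at Day 2, 97.7, 79.4, 80.5 and 78.8 at Day 3 and 41.9, 43.4, 56.6 and 54.5 at Day 5. Each of the Day 2 and Day 3 males lay above each Day 0 male, and the Day 5 males ran from the top of the Day 0 range upward. Flt1 rose by 2.04-fold at Day 2 (log2 1.03 ± 0.19, adjusted p = 0.0353) and 2.42-fold at Day 3 (log2 1.27 ± 0.18, adjusted p = 0.00625), was at log2 0.62 ± 0.21, adjusted p = 0.0683 at Day 5, and fell between Day 3 and Day 5 (log2 -0.63 ± 0.15, adjusted p = 0.0118). With an offset for gene length neither that fall (log2 -0.39, adjusted p = 0.0853) nor the Day 2 rise (log2 0.64, adjusted p = 0.0576) was called. In bulk RNA, more or fewer endothelial cells and more or less RNA of a gene per cell cannot be told apart.

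Tek in males was at 25.1, 22.4, 15.1 and 27.1 CPM at Day 0, 49.6, 50.9, 53.7 and 59.4 at Day 2, 50.6, 54.4, 53.7 and 55.5 at Day 3 and 31.6, 31.1, 42.2 and 50.7 at Day 5. Tek at Day 0 was below every male of the later days. It rose by 2.36-fold at Day 2 (log2 1.24 ± 0.18, adjusted p = 0.0241), 2.36-fold at Day 3 (log2 1.24 ± 0.16, adjusted p = 0.00506) and 1.86-fold at Day 5 (log2 0.90 ± 0.23, adjusted p = 0.0286). At Day 3 the calls of Flt1 and Tek held in each of 8 fits that left out 1 mouse, while at Day 2 both held in 2 of 8, those without Day 0 mouse 3 or mouse 4. Without Day 0 mouse 3 the Day 3 values were 1.13, adjusted p = 0.000383 for Flt1 and 1.101, adjusted p = 0.000223 for Tek. The Day 5 call of Tek held in 3 of 8 fits, among them the one without male Day 5 mouse 1 (log2 1.01, adjusted p = 0.0164).

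**Figure D1:**
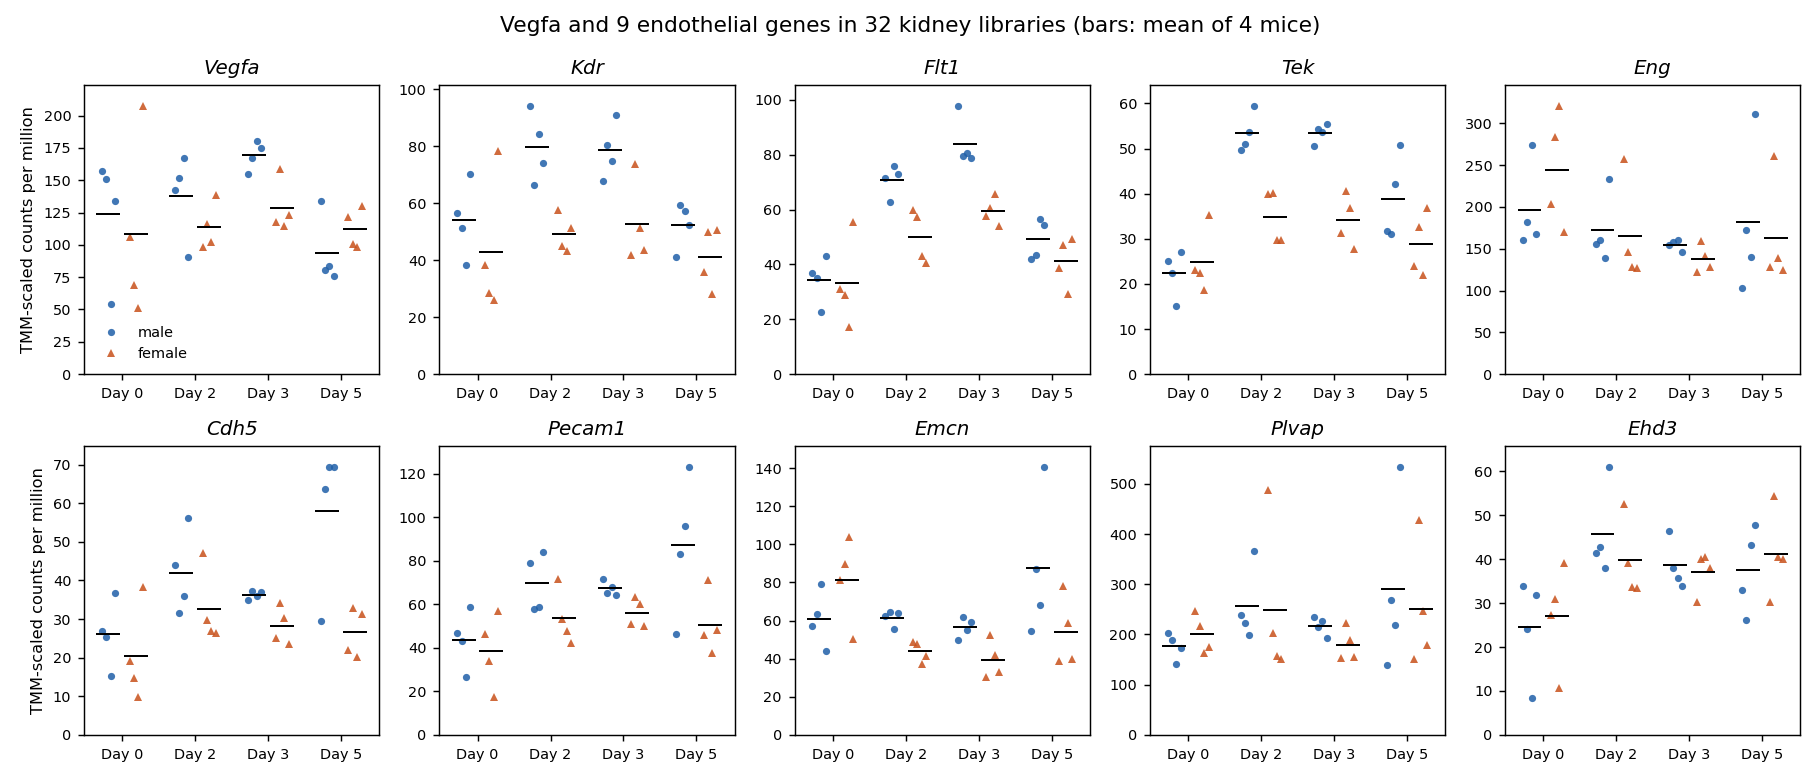
Level of each of the 10 genes in CPM (linear axis, TMM scaled) against day, 1 point per mouse (males blue circles, females orange triangles), with a bar at the mean of 4 mice. Flt1 in males lies at 22.5 to 43.0 CPM at Day 0 and 78.8 to 97.7 CPM at Day 3 with no overlap, and Emcn in females at 50.2 to 104 CPM at Day 0 and 30.5 to 52.4 CPM at Day 3.

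In females the same receptors had higher medians after cisplatin, but did not pass in edgeR with all mice in the fit. Flt1 was at 30.96, 28.9, 17.3 and 55.4 CPM at Day 0, 59.7, 57.2, 43.1 and 40.5 at Day 2, 57.8, 60.6, 65.5 and 54.1 at Day 3 and 38.9, 47.3, 29.0 and 49.2 at Day 5. Tek was at 23.0, 22.3, 18.7 and 35.3 CPM, 39.8, 40.2, 29.7 and 29.8, 31.3, 40.5, 36.9 and 27.7 and 23.96, 32.6, 22.1 and 36.9 on the same days. For both genes Day 0 mouse 4 reached into the range of Day 2 and Day 3, and the other 3 Day 0 females lay below the Day 2 and Day 3 mice. The log2 fold changes at Day 3 were 0.80 ± 0.30, adjusted p = 0.115 for Flt1 and 0.41 ± 0.21, adjusted p = 0.225 for Tek. Without Day 0 mouse 4 they were 1.16, adjusted p = 0.00346 for Flt1 and 0.62, adjusted p = 0.0147 for Tek, and without mouse 3 they were 0.60, adjusted p = 0.138 and 0.31, adjusted p = 0.333.

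Kdr, the signalling receptor of Vegfa, was at 56.7, 51.3, 38.4 and 70.3 CPM in Day 0 males and 67.9, 80.5, 74.9 and 90.9 CPM in Day 3 males. The groups overlapped through Day 0 mouse 4, and the test was not passed at Day 2 (log2 0.54 ± 0.19, adjusted p = 0.113), Day 3 (log2 0.51 ± 0.18, adjusted p = 0.0641) or Day 5 (log2 0.06 ± 0.21, adjusted p = 0.873). Of 9 alternatives with all mice, 1 called Kdr at Day 2 and 3 at Day 3. Female Kdr was at 38.3, 28.5, 26.1 and 78.2 CPM at Day 0 and 41.8, 73.9, 51.2 and 43.6 CPM at Day 3, with log2 fold changes of 0.15 ± 0.33 at Day 2, 0.25 ± 0.35 at Day 3 and -0.07 ± 0.35 at Day 5 (adjusted p from 0.642 to 0.937). Without Day 0 mouse 4 of its sex, Kdr at Day 3 was at 0.68, adjusted p = 0.0142 in males and 0.71, adjusted p = 0.0358 in females. Without Day 0 mouse 3 it was at 0.39, adjusted p = 0.0521 and 0.089, adjusted p = 0.874.

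Eng, the co-receptor, was lower after cisplatin in most females. Its levels were 203, 284, 320.5 and 170.5 CPM at Day 0, 257, 146, 129 and 127 at Day 2, 123, 159.7, 141 and 128 at Day 3 and 128, 261, 139 and 124 at Day 5. At Day 3 each female lay below each Day 0 female, with a log2 fold change of -0.88 ± 0.23, adjusted p = 0.0525, which missed the threshold of 0.05, of -1.02, adjusted p = 0.00426 without Day 0 mouse 4 and of -0.71, adjusted p = 0.0875 without mouse 3. Males had 160.3, 182, 275 and 168 CPM at Day 0 and 155, 158, 161 and 147 CPM at Day 3 (log2 -0.38 ± 0.20, adjusted p = 0.19, and -0.14, adjusted p = 0.205 without Day 0 mouse 3). At Day 5 they spread from 103 to 311 CPM, the widest range of Eng in any group, with log2 -0.02 ± 0.37, adjusted p = 0.97.

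The junction genes Cdh5 and Pecam1 rose in males at Day 5. Cdh5 was at 27.0, 25.3, 15.2 and 36.7 CPM at Day 0, 35.0, 37.3, 35.9 and 36.9 at Day 3 and 29.5, 63.6, 69.2 and 69.3 at Day 5. Of the Day 5 males, mouse 1 lay within the Day 0 range and the other 3 lay above it. The log2 fold change at Day 5 was 1.26 ± 0.33, adjusted p = 0.029, and 1.49, adjusted p = 0.00415 without that mouse. Pecam1 was at 46.8, 42.9, 26.8 and 58.7 CPM at Day 0, 71.9, 65.2, 67.9 and 64.5 at Day 3 and 46.5, 83.1, 96.0 and 123 at Day 5. Here too Day 5 mouse 1 lay within the Day 0 range and the other 3 above it. At Day 5 the log2 fold change of Pecam1 was 1.102 ± 0.32, adjusted p = 0.0411, and at Day 3, where each male lay above each Day 0 male, it was 0.60 ± 0.20, adjusted p = 0.0589. Without Day 0 mouse 3, Pecam1 was at 0.94, adjusted p = 0.0651 at Day 5 and 0.44, adjusted p = 0.0221 at Day 3, and 3 of 9 alternatives with all mice called it at Day 3. Of 8 fits that left out 1 mouse, 3 kept the Day 5 call of Cdh5 and 2 that of Pecam1.

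These Day 5 rises of junction genes stood beside other differences of the same mice. Counts of mitochondrial genes took 78.9 to 79.8% in the 3 males with high Cdh5 and 42.5% in mouse 1. Pecam1 is also found on leukocytes and platelets. Leukocyte markers summed to 37.8 to 100.2 CPM in males at Day 0 and 37.4 to 207 CPM at Day 5, platelet markers to 11.9 to 19.6 CPM and 12.7 to 38.8 CPM, and mural cell markers to 141 to 297 CPM and 216 to 434 CPM. Without overlap, lymphatic markers were higher at Day 5 (8.93 to 15.9 CPM and 19.6 to 53.8 CPM), as were glomerular endothelial genes (41.3 to 89.1 CPM and 127 to 349 CPM), and proximal tubule markers were lower (5949.6 to 7052 CPM and 235 to 2804 CPM). No marker of these lists was at 0 throughout a group, and their part in the result was not tested. In females at Day 5 neither gene passed the test, where Cdh5 was at 0.37 ± 0.38, adjusted p = 0.643 and Pecam1 at 0.39 ± 0.34, adjusted p = 0.588 on the log2 scale. At Day 3 they were at 0.42 ± 0.37, adjusted p = 0.446 and 0.49 ± 0.30, adjusted p = 0.297, and Cdh5 was at 0.90, adjusted p = 0.0175 without Day 0 mouse 4 and 0.20, adjusted p = 0.674 without mouse 3.

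Emcn, the capillary mucin, fell in females. It was at 81.3, 89.6, 104 and 50.2 CPM at Day 0, 48.9, 47.6, 37.0 and 41.5 at Day 2, 30.5, 52.4, 42.0 and 33.1 at Day 3 and 38.7, 77.9, 58.8 and 40.0 at Day 5. Each Day 2 female lay below each Day 0 female, and at Day 3 the groups overlapped through Day 0 mouse 4, the lowest of its group, and Day 3 mouse 2. The log2 fold change was -0.95 ± 0.25, adjusted p = 0.0603 at Day 2, -1.098 ± 0.26, adjusted p = 0.048 at Day 3 (a level 0.467 times that of Day 0) and -0.60 ± 0.30, adjusted p = 0.36 at Day 5. The Day 3 call held in 1 of 8 fits that left out 1 mouse, the one without Day 0 mouse 4 (-1.27, adjusted p = 0.00232), and without Day 0 mouse 3 the value was -0.94, adjusted p = 0.0781. In males Emcn was at 57.0, 63.4, 79.1 and 44.0 CPM at Day 0, 62.4, 64.5, 55.3 and 64.0 at Day 2, 49.6, 61.7, 54.8 and 59.5 at Day 3 and 54.7, 87.1, 68.0 and 141 at Day 5. The male groups overlapped, with log2 fold changes against Day 0 of -0.01 ± 0.19, adjusted p = 0.977 at Day 2, -0.14 ± 0.19, adjusted p = 0.588 at Day 3 and 0.61 ± 0.33, adjusted p = 0.204 at Day 5. Between Day 3 and Day 5 Emcn rose in males (log2 0.78 ± 0.27, adjusted p = 0.0452), as did Cdh5 (log2 0.82 ± 0.25, adjusted p = 0.0301). Those calls held in 2 of 8 and 1 of 8 fits without 1 mouse.

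Plvap, of the fenestral diaphragms, and Ehd3, of the glomerular endothelium, did not pass edgeR's test against Day 0 with all mice in the fit. Plvap ranged over 141 to 203 CPM in Day 0 males and 194 to 235 CPM at Day 3, and over 163 to 247 CPM and 153 to 222 CPM in females. Single mice were far above their groups, at 487 CPM in females at Day 2, 533 CPM in males at Day 5 and 428 CPM in females at Day 5. The log2 fold changes of Plvap lay between -0.21 and 0.82 over the 6 comparisons. In males it passed at Day 3 with the gene length offset (0.58, adjusted p = 0.0402) and at Day 5 without mouse 1 (1.07, adjusted p = 0.0373). Ehd3 ranged over 8.46 to 33.9 CPM in Day 0 males and 38.1 to 61.0 CPM at Day 2, without overlap (log2 0.89 ± 0.36, adjusted p = 0.144, and 0.59, adjusted p = 0.0651 without Day 0 mouse 3). In females it ranged over 10.7 to 39.1 CPM and 33.4 to 52.6 CPM (log2 0.51 ± 0.34, adjusted p = 0.37). In limma voom with quality weights, Ehd3 passed in males at Day 2 (0.61, adjusted p = 0.00596) and Day 3 (0.46, adjusted p = 0.015), and Plvap in males at Day 5 (0.702, adjusted p = 0.00892) and females at Day 3 (-0.41, adjusted p = 0.0447).

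**Figure D2:**
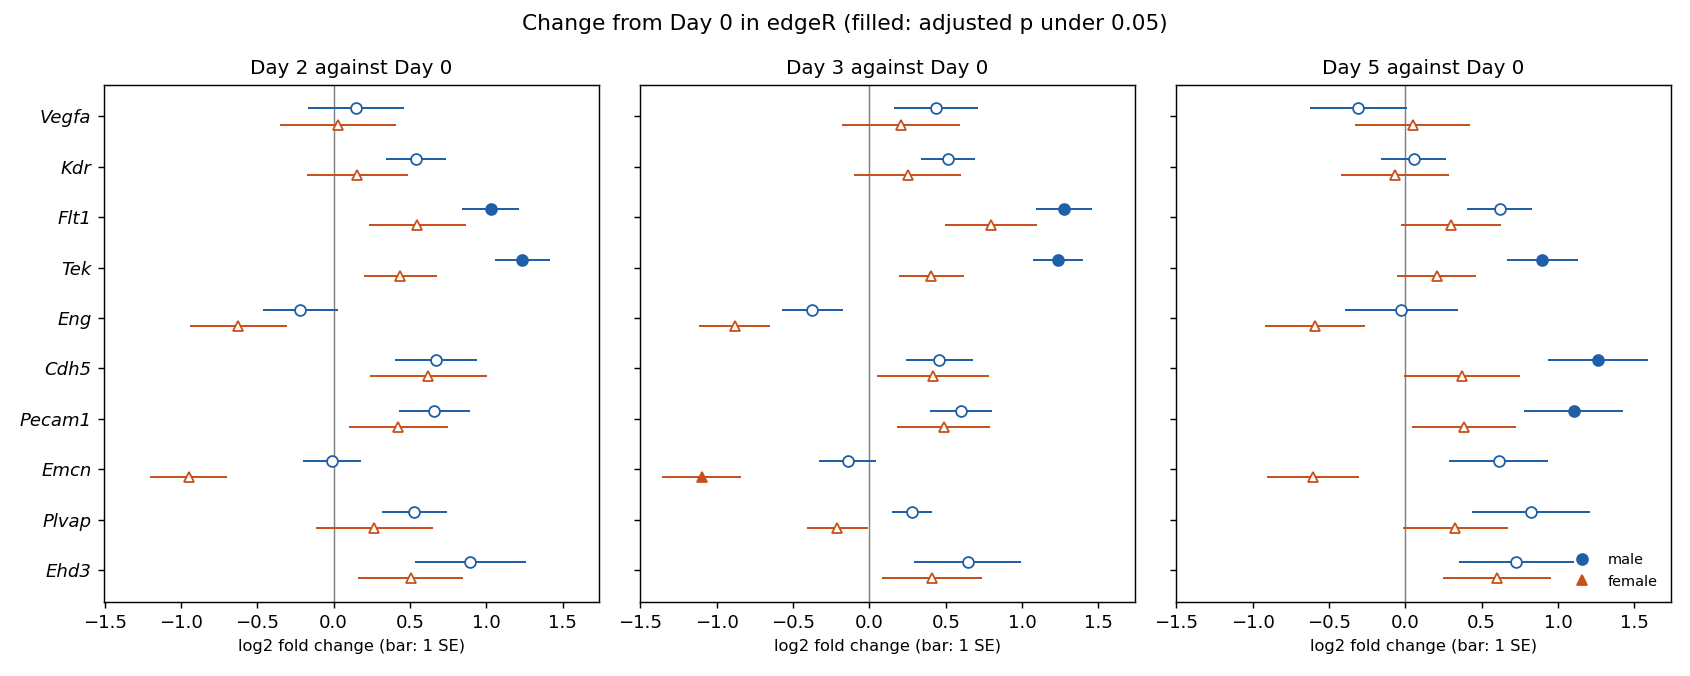
Log2 fold change against Day 0 (edgeR, ± 1 SE) of each of the 10 genes at Day 2, Day 3 and Day 5, males and females side by side, with filled points for an adjusted p under 0.05. Filled points are Flt1 and Tek at Day 2 and Day 3 and Tek, Cdh5 and Pecam1 at Day 5 in males, all above 0, and Emcn at Day 3 in females, below 0.

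Counted over the 10 genes, 2 of 10 rose in males at Day 2 and Day 3 and 3 of 10 at Day 5, and in females 0 of 10 passed at Day 2, 1 of 10 (Emcn, lower, beside 4.28% of all genes) at Day 3 and 0 of 10 at Day 5. Over all genes tested the share that passed was 3.16% at Day 2, 24.5% at Day 3 and 19.2% at Day 5 in males, of which 1.81%, 11.4% and 8.98% were higher, and 1.93%, 5.54% and 0.258% in females. At Day 3 in males the share of the 10 genes lay below that of all genes passing in either direction and above that of all genes higher. The share higher there moved with gene length. It was 22.3% of protein-coding genes over 5 kb, 5.17% of those of 2 to 5 kb and 1.49% of those under 2 kb. Flt1 has 13504 exonic bases and Tek 4712. Without overlap, 3 of 10 were higher in males at Day 2 (Flt1, Tek and Ehd3), 3 of 10 at Day 3 (Flt1, Tek and Pecam1) and 1 of 10 at Day 5 (Tek), beside 13.1%, 21.7% and 10.4% of all genes. In females 1 of 10 was lower without overlap at Day 2 (Emcn, beside 6.09%) and 1 of 10 at Day 3 (Eng, beside 8.53%). By the unadjusted p alone (under 0.05), 7, 4 and 4 of 10 passed in males at Day 2, Day 3 and Day 5, beside 4654 of 16051, 6441 of 15908 and 5402 of 14969 genes tested. In females it was 1, 3 and 0 of 10, beside 4189 of 16541, 5247 of 17065 and 2548 of 16260. The study sets a log fold change of 1.5 for a DEG without naming the base, taken here as base 2, and no member passed that as well in any comparison, beside 0.716%, 3.72% and 7.53% of all genes in males and 1.41%, 2.48% and 0.228% in females at Day 2, Day 3 and Day 5.

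Other tests called more of the 10 genes with all mice in the fit. In males, limma voom with quality weights added Kdr, Cdh5, Pecam1 and Ehd3 at Day 2 and Day 3, and Vegfa, Flt1, Emcn and Plvap at Day 5, while it called 46.4%, 57.1% and 54.8% of all genes. In females it added Flt1, Tek, Eng, Cdh5 and Emcn at Day 2, Flt1, Tek, Eng, Cdh5, Pecam1 and Plvap at Day 3 and Emcn at Day 5, beside 50%, 47.8% and 18.9% of all genes. The DESeq2 Wald test added Kdr and Pecam1 at Day 3 and Flt1 at Day 5 in males, and Emcn at Day 2 and Eng at Day 3 in females. It called 35.1% of all genes in males at Day 3, and 13% and 21.3% in females at Day 2 and Day 3. Its share in males at Day 5 is not reported here. A single fit of the 8 groups added Emcn at Day 2 and Flt1 and Eng at Day 3 in females, beside 21.8% and 23.4% of all genes.

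The count in females rested on Day 0 mouse 4. Without this mouse 5 of 10 passed at Day 2 (Kdr, Flt1, Tek and Cdh5 higher, Emcn lower) and 7 of 10 at Day 3 (Vegfa, Kdr, Flt1, Tek and Cdh5 higher, Eng and Emcn lower), while the share of all genes that passed went to 28.3% and 39.1%. Without male Day 0 mouse 4 the counts were 4 of 10 at Day 2 and 5 of 10 at Day 3, beside 14% and 34.7% of all genes. Leaving out mouse 4 is a choice made after its values were seen, and with it left out 3 mice stand for Day 0. Without male Day 5 mouse 1, 5 of 10 passed at Day 5 against Day 0, with Flt1 and Plvap added to Tek, Cdh5 and Pecam1, beside 26% of all genes.

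At Day 3, males had higher levels than females of 7 of the 10 genes. Over all genes 21.3% passed in this comparison and 10.6% were higher in males. Tek was at 50.6 to 55.5 CPM in males and 27.7 to 40.5 CPM in females (log2 0.66 ± 0.10, adjusted p = 0.00297), and Flt1 at 78.8 to 97.7 CPM and 54.1 to 65.5 CPM (log2 0.50 ± 0.09, adjusted p = 0.00472). For these receptors the sexes did not overlap, nor did they for Cdh5 and Pecam1, beside 12.4% of all genes. Vegfa (log2 0.40 ± 0.11, adjusted p = 0.0288), Kdr (0.58 ± 0.18, adjusted p = 0.0443), Emcn (0.52 ± 0.16, adjusted p = 0.0424), Cdh5 (0.36 ± 0.10, adjusted p = 0.0344) and Pecam1 (0.27 ± 0.08, adjusted p = 0.0477) also passed. Eng (0.17 ± 0.09, adjusted p = 0.176), Plvap (0.28 ± 0.12, adjusted p = 0.126) and Ehd3 (0.06 ± 0.12, adjusted p = 0.747) did not. Flt1 and Tek kept the call in each of 8 fits without 1 mouse and the other 5 in 1 or 2 of 8. None of the 10 passed when all 8 groups shared 1 estimate of the spread, beside 0.988% of all genes in that fit.

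On the other days fewer of the 10 genes passed between the sexes in edgeR. At Day 2 as at Day 3, all 10 log2 values were above 0, beside 47.5% and 47.8% of all genes. Their medians on these days were 0.40 and 0.38. A single fit of the 8 groups called 0 at Day 3 and 2 at Day 5, beside 0.988% and 9.69% of all genes. At Day 0 and Day 5 none of the 10 genes passed (edgeR, beside 0.449% and 0.276% of all genes). Without adjustment 0 and 4 of the 10 were under 0.05 on these days, beside 1289 of 16042 and 3094 of 15237 genes tested. At Day 2 Kdr passed (log2 0.73 ± 0.15, adjusted p = 0.0498, beside 1.47% of all genes). That call held in 2 of 8 fits without 1 mouse and in 3 of 9 alternatives with all mice. Whether cisplatin changed the genes differently in the sexes was tested as an interaction of sex and day. At Day 3 all 10 interaction values were above 0, beside 48.8% of all genes. Tek was at 0.80 ± 0.28, adjusted p = 0.549, Emcn at 0.93 ± 0.32, adjusted p = 0.549 and Flt1 at 0.45 ± 0.37, adjusted p = 0.916. On Day 2, Day 3 and Day 5 none of the 10 passed (edgeR, beside 0%, 0.0114% and 0.243% of all genes). Without adjustment 2, 2 and 1 of the 10 were under 0.05, beside 738 of 17467, 1252 of 17598 and 2568 of 16907 genes tested. In limma voom with quality weights 2, 4 and 5 of the 10 passed for the interaction, beside 11.2%, 12% and 32.5% of all genes, and 1 at Day 5 in the single fit of 8 groups, beside 7.55%. Whether the change from Day 0 differed between the sexes thus depended on the test. Between Day 2 and Day 3 none of the 10 passed in either sex (edgeR), nor did any gene in the whole table (0% in males and 0% in females). Without adjustment 1 of the 10 in males and 0 in females were under 0.05, beside 1410 of 16232 and 678 of 16974 genes tested. Between Day 3 and Day 5, 37.9% of all genes and 4 of the 10 passed in males, of which Vegfa and Flt1 fell without overlap, as Kdr was lower without overlap (3 of 10, beside 28% of all genes). In females over that interval it was 0% and 0 of the 10 (edgeR, 1 under 0.05 without adjustment, beside 1973 of 16794 genes tested).

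Ratios of the read counts of a pair of genes within a library do not depend on how libraries are scaled. The ratio of Tek to Emcn was 0.191 to 0.617 in Day 0 males and 0.180 to 0.704 in Day 0 females. At Day 2 it was 0.789 to 0.970 in males and 0.717 to 0.844 in females, at Day 3 0.880 to 1.02 and 0.772 to 1.02, and at Day 5 0.358 to 0.620 and 0.375 to 0.922. Each of the 16 libraries of Day 2 and Day 3 lay above each of the 8 Day 0 libraries, female Day 0 mouse 4 included. The ratio of Flt1 to Kdr, the weak and the strong receptor of Vegfa, was 0.588 to 0.681 in Day 0 males, 0.759 to 0.983 at Day 2, 0.867 to 1.44 at Day 3 and 0.732 to 1.04 at Day 5. Each later male lay above the Day 0 males, while in females Day 0 (0.662 to 1.01) overlapped Day 2 (0.790 to 1.28) and Day 3 (0.820 to 1.38). Both are among 6 ratios chosen after the values of the genes had been seen, and are given with no test. The ratios of Flt1 to Emcn, Kdr to Eng and Plvap to Ehd3 overlapped between Day 0 and Day 2 in each sex. At Day 3, Flt1 to Emcn lay above Day 0 without overlap in males (1.29 to 1.97 against 0.285 to 0.978) and females (1.16 to 1.89 against 0.166 to 1.104), and Kdr to Eng in males (0.439 to 0.619 against 0.140 to 0.418). Vegfa to Flt1 was 2.42 to 4.32 in Day 0 males, 1.25 to 2.41 at Day 2 and 1.59 to 2.24 at Day 3, without overlap with Day 0, and 2.38 to 3.74, 1.65 to 3.43 and 1.75 to 2.62 in females, with overlap. These genes differ in exonic length (Tek 4712 bases, Emcn 5409, Flt1 13504 and Kdr 9030).

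**Figure D3:**
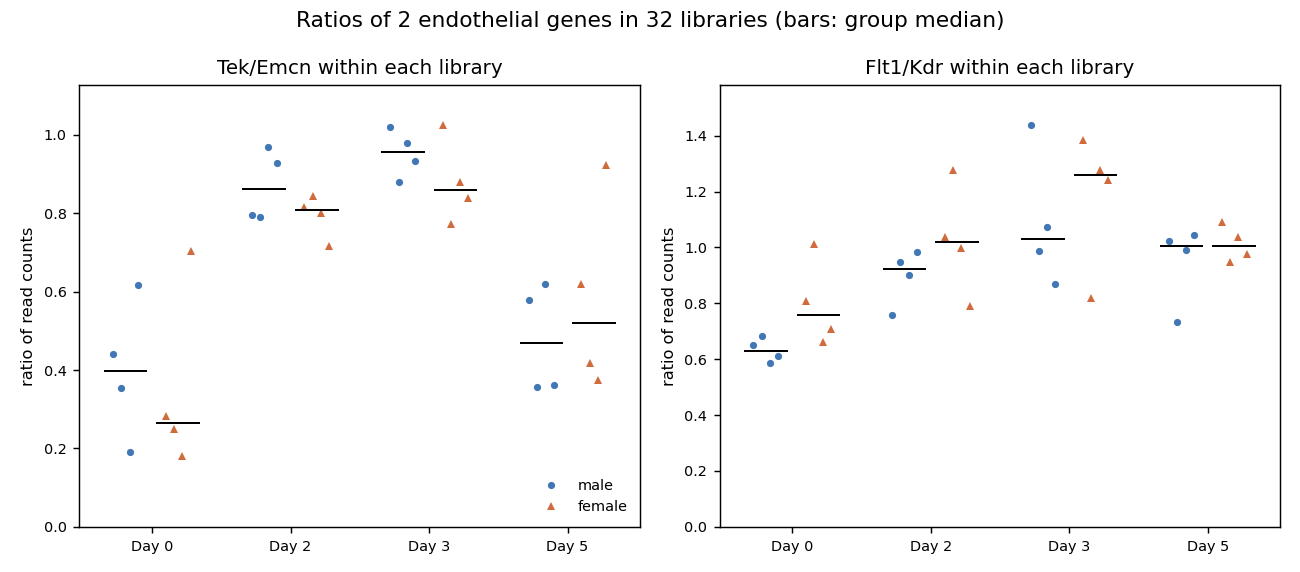
Ratio of the read counts of Tek to Emcn and of Flt1 to Kdr (linear axes) in each library by day, males as blue circles and females as orange triangles, with a bar at the median of 4 mice. Tek to Emcn lies at 0.180 to 0.704 at Day 0 and at 0.717 to 1.02 at Day 2 and Day 3.

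Gene length moved with day over the whole table, and the members range from 1987 bases (Plvap) to 13504 bases (Flt1). For each library the median log2 level of protein-coding genes over 5 kb, relative to their means over all libraries, was set against that of genes under 2 kb. The difference was -0.96 to -0.07 in Day 0 males and -1.099 to 0.26 in Day 0 females, 0.42 to 0.55 and 0.04 to 0.35 at Day 3, and -0.25 to 0.19 and -0.58 to 0.15 at Day 5. Day 0 mouse 3 was at -0.96 in males and -1.04 in females, and Day 0 mouse 4 was the highest of its group in both sexes at -0.07 and 0.26. With a length term for each library as an offset, Flt1 at Day 3 in males was at 0.78, adjusted p = 0.0146 and Tek at 1.15, adjusted p = 0.00521, both still called, while Flt1 at Day 2 (0.64, adjusted p = 0.0576) and Emcn in females at Day 3 (-1.33, adjusted p = 0.0601) were not. Between the sexes, Kdr at Day 2 (0.60, adjusted p = 0.118) and Kdr (0.48, adjusted p = 0.0625) and Pecam1 (0.23, adjusted p = 0.0691) at Day 3 lost the call, as did Flt1 between Day 3 and Day 5 in males. The offset left 12% of all genes called at Day 3 in males and 0% in females.

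**Figure D4:**
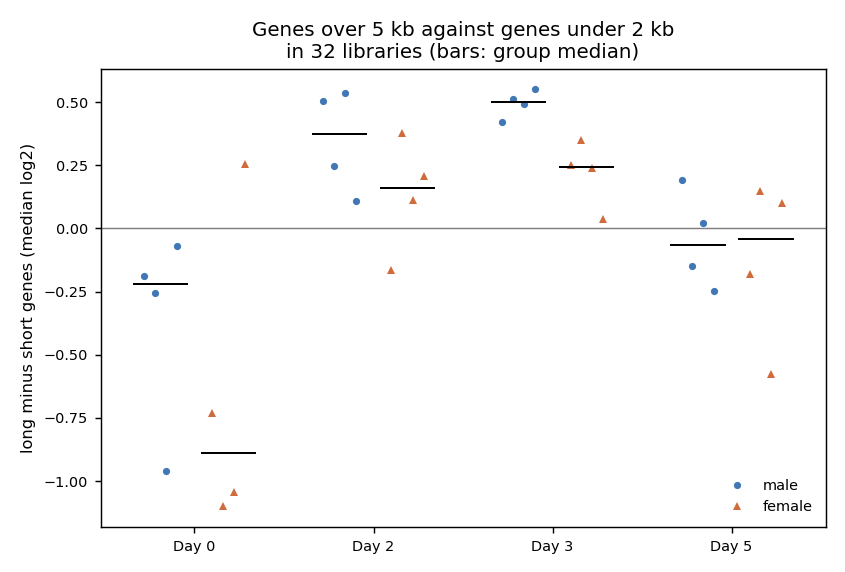
Median log2 level of protein-coding genes over 5 kb minus that of genes under 2 kb in each library by day, with a bar at the median of 4 mice. Day 0 lies between -1.099 and 0.26, and Day 3 males between 0.42 and 0.55.

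Around these members, lists of related genes were counted in males at Day 3, where the median log2 fold change of all genes tested was 0.02, that of the 10 members 0.49, and 24.5% of all genes passed. The VEGF list had a share of calls near that of all genes. Of 7 other VEGF ligands and receptors, 1 rose, the co-receptor Nrp2 (0.68 ± 0.20), and 1 fell, the ligand Vegfb (-0.69 ± 0.19), with a median of -0.41. Of 5 genes of the angiopoietin and Tie group 2 rose and 0 fell, with a median of 0.89: Ptprb (1.098 ± 0.13), the phosphatase that holds Tek inactive, and Angpt2 (0.95 ± 0.28), the ligand that competes with its activator. Of 24 other pan-endothelial genes 8 rose and 0 fell, with a median of 0.35, led by Mmrn2 (1.29 ± 0.22) and Podxl (1.05 ± 0.20), the latter also a podocyte gene. Of 5 glomerular endothelial genes tested 3 rose, among them Plat (0.84 ± 0.20) and Hecw2 (1.33 ± 0.40), and Pi16 (-1.504 ± 0.40) fell. The Notch ligand Jag1 (0.69 ± 0.13) and the receptor Notch1 (2.16 ± 0.48) were among 3 of 6 Notch genes that rose. Bmpr2 (0.51 ± 0.10), a receptor of the same ligand family as Eng, was among 3 of 6 genes of the endoglin pathway that rose, and both Thbs1 (0.94 ± 0.12) and Adamts1 (1.14 ± 0.19) rose of 5 secreted inhibitors of angiogenesis. Of 12 genes of the hypoxia response 3 fell and 0 rose, among them Egln1 (-0.65 ± 0.12) and Vhl (-0.46 ± 0.11), which mark hypoxia-inducible factors for breakdown, with a median of -0.12.

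The lists were chosen with earlier results of these data known, and their counts at Day 3 stand beside 11.4% of all genes higher and 24.5% passing in either direction. With the length offset the pan-endothelial count stayed at 8 of 24, and the VEGF family went to 0 of 7, beside 12% of all genes passing in that fit. In the same mice the 4 erythroid markers summed to 397 to 1909.6 CPM at Day 0 and 0.812 to 2.24 CPM at Day 3, and adipocyte markers to 246 to 1097 CPM and 107 to 157 CPM. Podocyte markers, of which Nphs1 rose (log2 1.13 ± 0.31), were at 74.3 to 142 CPM and 143 to 176 CPM, without overlap. Leukocyte markers were at 37.8 to 100.2 CPM and 31.4 to 49.97 CPM, mural cell markers at 141 to 297 CPM and 173 to 189.6 CPM, and lymphatic markers, of which Prox1 rose (log2 1.85 ± 0.33), at 8.93 to 15.9 CPM and 17.2 to 21.4 CPM. The part of these cells in the endothelial values was not tested.

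List genes also passed on the other days and in females. At Day 2 in males Ptprb (1.09 ± 0.16), 3 of 24 pan-endothelial genes, Thbs1 and Adamts1 had already risen, beside 1.81% of all genes higher. With the length offset 0 of the 24 passed, beside 0.679% of all genes in that fit. At Day 5 in males Angpt2 was at 2.04 ± 0.43, the placental growth factor Pgf (2.99 ± 0.47), a ligand of Flt1, rose, and 8 of 24 pan-endothelial genes rose and 0 fell (beside 8.98% of all genes higher), with the smallest adjusted p for the flow-responsive receptor S1pr1 (1.70 ± 0.30) and the flow-induced factor Klf2 (1.496 ± 0.29). In females at Day 2, where 1.93% of all genes passed, the endothelial proteoglycan Esm1 (-1.99 ± 0.38) fell and Egln3 (1.23 ± 0.25), of the hypoxia response, rose. Of the 12 hypoxia genes, Egln3 was also the 1 called in females at Day 3 (1.28 ± 0.26). Angptl4 of the angiopoietin and Tie group, a secreted inhibitor of lipoprotein lipase, rose in females at Day 5 (2.03 ± 0.25). In females at Day 3, beside 5.54% of all genes, the tight junction gene Cldn5 (-1.36 ± 0.28) and Klf2 (-0.69 ± 0.17) fell and Mmrn2 (1.003 ± 0.22) rose among the 24 pan-endothelial genes, and the leukocyte adhesion molecule Icam1 (2.72 ± 0.56) rose, as it had at Day 2 (2.55 ± 0.51) and as it did in males at Day 3 (1.62 ± 0.25) and Day 5 (1.32 ± 0.29). Without female Day 0 mouse 3 none of the genes in any list passed at Day 3 in females. That absence was not set against the share of all genes in the same fit, so it is no result about the lists. Without Day 0 mouse 4 the pan-endothelial genes counted 4 higher and 7 lower, beside 39.1% of all genes passing. Between the sexes at Day 3, Tie1 (0.54 ± 0.08), the orphan partner of Tek, the lymphatic VEGF receptor Flt4 (0.46 ± 0.11) and 7 of 24 pan-endothelial genes were higher in males, beside 10.6% of all genes, and 2 of 24, Cav1 (-0.57 ± 0.11) and Ramp2 (-0.42 ± 0.11), were higher in females.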

How the data were processed

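Kidney RNA was measured by RNA sequencing in 32 libraries, 1 per mouse, whose sex and day are those in the labels. Read counts of 54532 genes, not normalized, and FPKM of the same libraries were deposited by the authors, with reads aligned to GRCm38 per the study's methods. The submitters' processing notes list HTSeq and DESeq2, and GRCm39, but the start and end of all 10 genes in the deposited counts are those of GRCm38, which was used. The aligner, versions and strandedness are not given in the sources used here. No library repeated another. Each library is 1 mouse, so p-values measure the spread between mice.

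The main test was the robust quasi-likelihood test of edgeR 4.0.16 (R 4.3.3) after TMM scaling and filterByExpr, in 17 contrasts fitted on the groups compared, with Benjamini-Hochberg adjustment over all genes tested and a call at an adjusted p under 0.05. CPM used TMM factors over the 32 libraries. The deposited FPKM were used only to order genes per length. Alternatives were DESeq2 size factors, no filter, at least 10 counts in every library, a replicate block on the mouse number, the Wald test in DESeq2 1.42.0, a single fit of the 8 groups, leaving out the 37 genes of the mitochondrial genome, limma 3.58.1 voom with quality weights, an absolute log2 fold change over 1.5, and each mouse left out. A gene length offset and leaving out both Day 0 mouse 3 libraries were added after the data were seen. Mouse numbers were not taken to pair the samples, since in no comparison did all 4 same-numbered pairs deviate together at r over 0.1; between the sexes at Day 0, numbers 1, 3 and 4 did (r = 0.271, 0.445 and 0.482). On counts simulated from male Day 0 and Day 3 libraries, 192 of 192 genes made to change and 7 of the others passed edgeR, with 15654 genes tested. Recovery of differences as small as those of the 10 genes, with the spread and length pattern of the Day 0 mice, was not tested.

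The 10 genes and all lists were chosen with earlier results of these data known. Named genes are the 10, in each list at most the 2 called genes of smallest adjusted p per direction and comparison, and the 5 genes most like the endothelial mean and Vegfa. Promoters came from RefSeq, with 7 of 10 genes matched. Total counts ran from 16502107 to 35961325 per library, and the lowest count of a member was 186.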

Additional observations from a re-analysis of the deposited data

Results flagged for a closer look

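Of 80 groups of 4 mice (10 genes in 8 groups), 7 held a mouse whose distance from its nearest neighbour took more than 0.829 of the range of the group, and chance gives this in about 1 in 20 groups. Of these 7, 3 were female Day 2 mouse 1, which was above the other 3 mice of its group in Plvap (487 CPM), Eng (257 CPM) and Cdh5 (47.1 CPM). A further 2 were male Day 5 mouse 1, the library with reads of Xist, which was above its group in Vegfa (134 CPM) and below it in Cdh5 (29.5 CPM). The remaining mice were male Day 3 mouse 1, above its group in Flt1 (97.7 CPM), and female Day 5 mouse 2, above its group in Eng (261 CPM) and the female with the highest share of mitochondrial counts (77.9%).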

How the results depend on the processing

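Counts of the 10 genes called depended on the setting (in brackets, in the same order, the share of all genes called in the same fit). An absolute log2 fold change over 1.5 left 0 in each comparison that had calls. With limma voom and quality weights, which give less weight to libraries far from their group, 6, 6 and 7 were called in males at Day 2, Day 3 and Day 5 (46.4%, 57.1% and 54.8%), 8 in males between Day 3 and Day 5 (55.3%), and 5, 7 and 1 in females at Day 2, Day 3 and Day 5 (50%, 47.8% and 18.9%). It also called 4, 7 and 4 between the sexes at Day 0, Day 2 and Day 5 (25.2%, 19% and 29.7%), and 2, 4 and 5 for the interaction on Day 2, Day 3 and Day 5 (11.2%, 12% and 32.5%). The DESeq2 Wald test called 4 in males at Day 3 (35.1%), 1 and 2 in females at Day 2 and Day 3 (13% and 21.3%), and 4 and 1 between the sexes at Day 2 and Day 5 (5.12% and 7.14%). DESeq2 size factors left 0 in females at Day 3 (2.53%) and 0 between the sexes at Day 2 (1.41%). A single fit over all 8 groups called 1 and 3 in females at Day 2 and Day 3 (21.8% and 23.4%), 0, 0 and 2 between the sexes at Day 2, Day 3 and Day 5 (0.763%, 0.988% and 9.69%), and 1 for the interaction at Day 5 (7.55%). No filter gave 0, 4 and 1 between the sexes at Day 2, Day 3 and Day 5 (1.25%, 9.89% and 1.29%). At least 10 counts in every library gave 4 in males at Day 3 (29.8%), 1 and 2 in females at Day 2 and Day 3 (6.66% and 12.2%), and 0 between the sexes at Day 2 (1.23%). Leaving out mitochondrial genes left 0 in females at Day 3 (4.59%). The gene length offset left 1 in males at Day 2, 0 in females at Day 3 and 0 between the sexes at Day 2 (0.679%, 0% and 1.33%). The mouse number as a replicate block left 0 in males at Day 2, Day 3 and Day 5, 0 in females at Day 3 and 0 between the sexes at Day 2 (0.0312%, 0.566%, 13%, 0% and 0.849%), with Flt1 at 1.30 (adjusted p = 0.0516) and Tek at 1.26 (adjusted p = 0.0505) at Day 3 in males; the mice share only a number, and in no comparison did every mouse correlate best with its own number. The cause of these changes was not tested.

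Leaving out 1 mouse gave 0 to 4 called in males at Day 2, 2 to 5 at Day 3, 0 to 5 at Day 5 and 2 to 7 between Day 3 and Day 5, 0 to 5 in females at Day 2 and 0 to 7 at Day 3, and 0 to 4, 2 to 9 and 0 to 3 between the sexes at Day 2, Day 3 and Day 5, with 0 to 0 in the other 8 comparisons. The share of all genes called in those fits was 0.079 to 14%, 4.18 to 38.6%, 5.38 to 26% and 22.3 to 55.2% in males, 0.125 to 28.3% and 0 to 39.1% in females, and 0.567 to 3.35%, 11.1 to 34.6% and 0 to 17% between the sexes. Some genes named reversed in direction. At Day 2 in males Emcn was at 0.028 with no filter, 0.011 at 10 counts in every library, 0.025 with the block and 0.025 with voom, and from -0.13 to 0.15 without 1 mouse. In males, Kdr at Day 5 was at -0.013 in 1 fit over all groups and -0.074 with the length offset (-0.059 to 0.20 without 1 mouse), Eng at Day 5 at 0.20 with voom (-0.42 to 0.22), and without 1 mouse Vegfa at Day 2 was at -0.11 to 0.29 and Emcn at Day 3 at -0.27 to 0.041. In females, with the length offset, Vegfa was at -0.042 and Kdr at -0.017 at Day 2 and Plvap at 0.061 at Day 3. Plvap was at -0.40 at Day 2 and -0.16 at Day 5 with voom, and Kdr at Day 5 at 0.14 with voom and 0.029 with the block. Without 1 mouse the female values were -0.29 to 0.45 for Plvap and -0.18 to 0.55 for Vegfa at Day 2, -0.018 to 0.72 for Vegfa at Day 3, and -0.24 to 0.40 for Kdr, -0.076 to 0.52 for Plvap and -0.18 to 0.57 for Vegfa at Day 5. Ehd3 between the sexes at Day 3 was at -0.0050 with voom and -0.044 to 0.12 without 1 mouse. Over the values of single genes, 518 of the leave-one-out fits kept direction and side of the threshold, 86 lost the call, 22 gained it and 22 reversed, and of the other alternatives 614 kept both, 35 lost, 41 gained and 15 reversed.

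Of the 5 genes most like the endothelial mean, 2 stayed among the top 5 over all 32 libraries; of those most like Vegfa, 2 stayed over all 32 libraries and 1 with Spearman's rho. Each member had at least 186 reads in each library, and counting error was not separated from the spread between mice.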

Other observations

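The members did not vary as 1 block. Over the 24 libraries of Day 0, Day 2 and Day 3, log2 CPM (without genes of the mitochondrial genome) correlated at r = 0.93 between Flt1 and Tek, 0.95 between Cdh5 and Pecam1 and 0.88 between Kdr and Cdh5. Eng correlated at 0.79 with Emcn and at -0.72 with Vegfa. These libraries share sexes, days and the length pattern of the Day 0 mice, so the values are descriptions with no test.

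The protein-coding genes closest to the mean of the 9 endothelial members over those 24 libraries were Cd300lg (r = 0.958), S1pr3 (0.949), Svep1 (0.925), Tie1 (0.924) and Arap3 (0.923), among 15179 genes compared. Closest to Vegfa were Pdha1 (0.951), Ahcyl2 (0.942), Cog5 (0.936), Mut (0.932) and Afg3l2 (0.931).

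Between Day 3 and Day 5 in males, 10 of 24 pan-endothelial genes rose, with the smallest adjusted p for the caveolar coat gene Cav1 (log2 2.30) and Klf2 (1.33), and 2 fell, Mmrn2 (-0.56) and Podxl (-0.81). Pgf (3.41) and Vegfb (0.79) rose among 7 VEGF ligands and receptors, of which 3 rose and 1, Flt4 (-0.61), fell. All 4 erythroid markers rose in that comparison, as did 4 of 5 leukocyte, 2 of 2 platelet, 3 of 3 adipocyte and 4 of 6 mural cell markers tested, 2 of 3 proximal tubule markers fell, and 37.9% of all genes passed in either direction.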
